A study of Mus musculus with 27 samples.

Results

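The T cell receptor signalling genes are 40 genes that were chosen by symbol, of 46078 genes in each of the tables of ProT cells and of empty-vector and TAL1 mice and 22906 in the table of AKT(E17K) mice. All 40 were found in all 3 tables. They fell into 6 groups by role: 4 CD3 and zeta chains, 6 proximal kinases and their switches, 4 surface coreceptors, 10 adaptors around LAT, 8 genes of the RAS, PKC, NF-kB and NFAT branches, and 8 negative regulators. Messenger RNA was counted in 27 libraries, 3 in each of 9 groups. Thymus came from 12 C57BL/6 mice with a bone marrow transplant, whose labels give an empty vector, TAL1, AKT(E17K), or AKT(E17K) together with TAL1. AKT(E17K) is an activated form of the kinase AKT, and TAL1 is a transcription factor that is switched on in many T cell acute lymphoblastic leukaemias. The other 15 libraries came from the ProT cell line, where CreER and LoxP are to switch TAL1 on according to the labels, sampled 0, 6, 12, 18 and 24 h after 4-hydroxytamoxifen.

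A T cell receives its antigen signal through a receptor whose variable chains cannot signal by themselves. The CD3 and zeta chains carry the signal inward when the kinase LCK phosphorylates them, ZAP70 docks on the phosphorylated tails, and ZAP70 then marks the scaffold LAT, on which SLP-76 (Lcp2), PLC-gamma1 (Plcg1), GRB2 and VAV1 assemble. From there the signal divides into RAS, protein kinase C with NF-kB, and calcium with NFAT, while phosphatases, ubiquitin ligases and diacylglycerol kinases dampen it. In the thymus this pathway decides whether a developing T cell lives, dies or matures, and coreceptors such as CD2, CD5, CD6 and CD28 tune its strength.

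Library depth was 3893990 to 11302098 counts in genes for the mice labelled empty vector or TAL1, 2073752 to 3661056 for those with AKT(E17K) and 2660641 to 6599146 for ProT cells. Counts of mouse Tal1 did not follow the labels and could not be used to check them. Whether a TAL1 carried by a vector would be counted in the mouse gene was not tested. Mouse Tal1 had no count in any mouse labelled empty vector, TAL1 or AKT(E17K) with TAL1, and 7 counts in mouse m121 labelled AKT(E17K). In ProT cells it already stood at 2886 to 3088 CPM (counts in a gene scaled to a common library total) at 0 h and at 1958 to 2062 CPM at 24 h, lower by 0.57 on the log2 scale with an adjusted p of 0.00172. The libraries are therefore named by their labels, and every direction below is a comparison of labels or of hours. Nothing in the labels tells whether the 3 ProT libraries of one time were grown apart, so p-values there cover the spread among those libraries alone, and that spread may be technical.

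The summed level of the 40 genes was 11626 to 13997 CPM in the empty-vector and TAL1 mice, 5578 to 10298 CPM in the mice labelled AKT(E17K) with or without TAL1, and 2374 to 2685 CPM in ProT cells. The 3 tables were counted separately, so these levels are set side by side and were not tested against each other. All 40 genes averaged at least 10 CPM in the empty-vector mice and in the mice labelled TAL1. In the AKT(E17K) group 5 genes averaged 1 to 10 CPM, and in ProT cells at 0 h 8 genes did so and 1 gene averaged under 1 CPM. The ranges of the summed level did not overlap between the 3 tables.

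**Figure D1:**
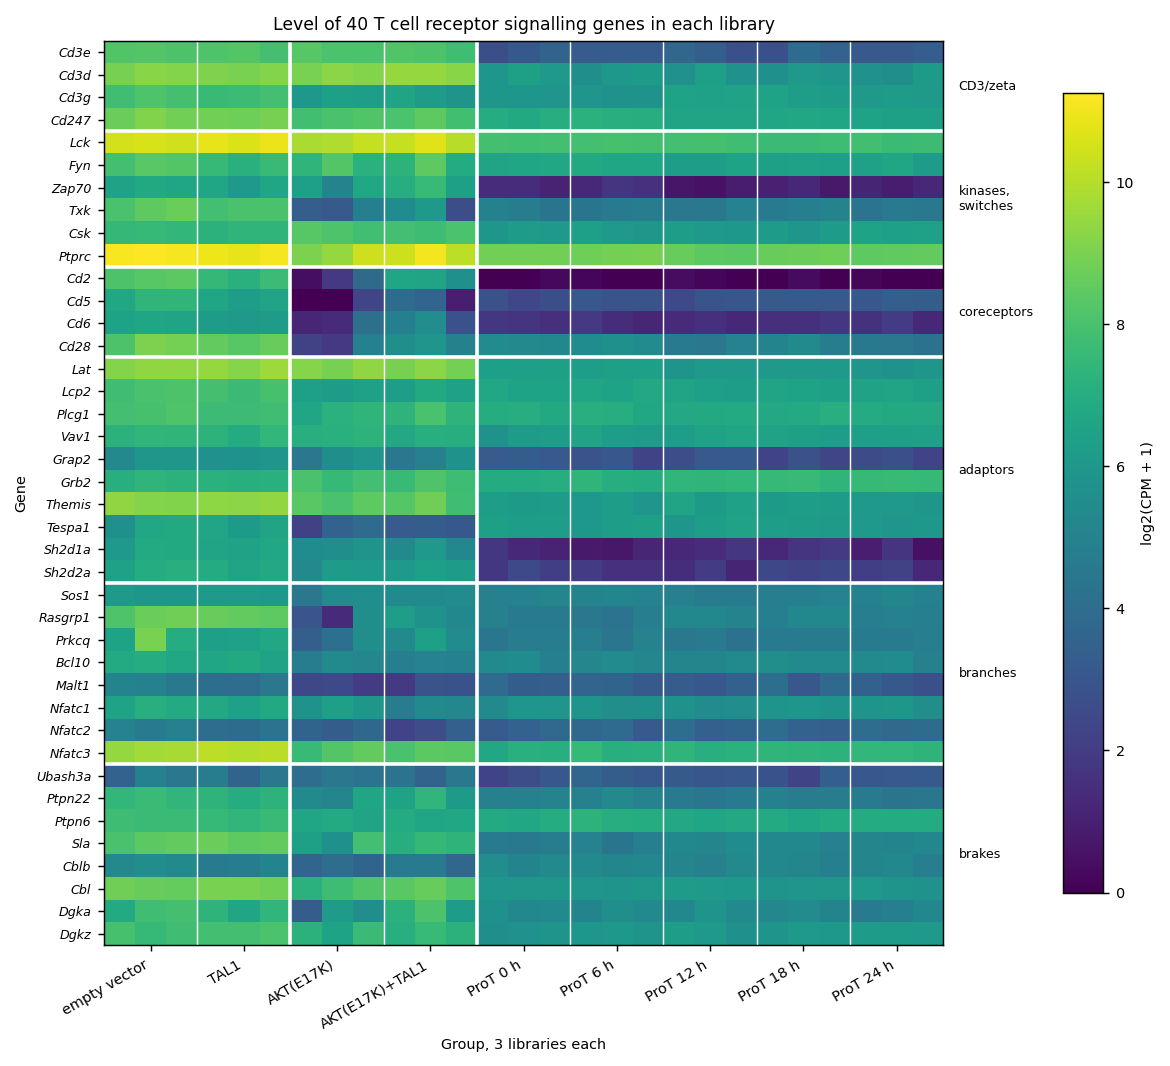
Colour shows log2(CPM + 1) of each of the 40 genes (vertical axis, grouped by role) in each of the 27 libraries (horizontal axis, 3 per group, thick white lines between the 3 tables). Lck and Ptprc are bright in every mouse, Cd2 is dark in every ProT library, and mice m121 and m122 (the first and second AKT(E17K) columns) are dark for Cd5, with no count.

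Per kilobase of exon, Lck, Cd3d and Lat were the highest 3 of the 40 genes in all 4 mouse groups. In the empty-vector mice Lck, the kinase that starts the cascade, reached a mean of 491 (CPM per kilobase, n = 3), Cd3d 308 and Lat 228. The AKT(E17K) group kept that order on the same scale, with 352 for Lck, 312.1 for Cd3d and 210 for Lat. Malt1, the paracaspase of the NF-kB branch, was the lowest of the 40 per kilobase in each mouse group, at 1.57 in the empty-vector mice and 0.223 in the AKT(E17K) group. That rank rests on the division by its 18040 exon bases. By CPM, Malt1 averaged 28.3 in the empty-vector mice against 20.6 for Ubash3a. In the AKT(E17K) group it averaged 4.02 CPM against 1.37 CPM for Cd5. In ProT cells at 0 h the order changed below Lck, which stood at 80.7: Grb2 followed at 41.9, the phosphatase gene Ptpn6 at 40.7 and Cd3d at 38.0, while Cd2 was lowest at 0.0373.

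Single genes of the set stood low in ProT cells beside the mice, a difference between tables that was not tested. Cd3e, one of the CD3 chains, ranged from 5.44 to 14.1 CPM over the 15 ProT libraries against 272 to 304 CPM in the empty-vector mice. Zap70 ranged from 0.459 to 2.25 CPM against 89.3 to 113 CPM, and Cd2 did not exceed 0.290 CPM. Cd3d, Cd3g, Cd247 and Lck were measured in every ProT library at 47.1 CPM or more. Zap70 and Cd2 were too low to be tested in ProT cells, which left 38 of the 40 genes. Of the 8 markers of double-positive thymocytes, 2 (Cd4 and Cd8b1) had no count in ProT cells at 0 h, and the others were counted. The 8 genes summed to 247 to 253 CPM there, against 6679 to 7788 CPM in the empty-vector mice. At 12 h, 0 of the 8 were without a count.

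Adaptors and brakes had different orders of level across the 3 tables. Tespa1, which helps calcium signals in thymocytes, averaged 88.6 ± 34.4 CPM (SD, n = 3) in the empty-vector mice, 9.49 ± 5.51 in the AKT(E17K) group and 79.1 ± 3.23 in ProT cells at 0 h. Cblb averaged 40.9 ± 2.98, 12.8 ± 2.15 and 39.0 ± 5.80 CPM in the same 3 groups. For both genes the AKT(E17K) group was the lowest, and the ranges of the empty-vector mice and of ProT cells overlapped.

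Among the same 3 groups, Sh2d1a, Sh2d2a and Themis were highest in the empty-vector mice and lowest in ProT cells at 0 h. Other genes of the set had that order too, as Lat did with means of 630, 580 and 82.1 CPM. Sh2d1a (SAP, the adaptor of SLAM receptors) averaged 99.3 ± 27.9, 48.2 ± 6.04 and 1.70 ± 0.714 CPM in these groups. Sh2d2a, an adaptor that binds LCK, averaged 114 ± 24.8, 59.2 ± 18.1 and 3.45 ± 1.02 CPM. Themis, a thymocyte protein needed for positive selection, averaged 596 ± 54.6, 310.6 ± 45.5 and 72.8 ± 4.76 CPM. In the mice labelled TAL1, outside these 3 groups, Themis averaged 656 CPM. In all 3 genes no range overlapped another. Such separation was not particular to them. Ptprc had it too, at 2205 to 2433, 519 to 1353 and 456 to 466 CPM in the same groups. The summed level of the set also had ranges without overlap between the 3 separately counted tables. The share of all genes with such separation was not tested, so it is not read as a trait of these genes. SLP-76 (Lcp2) averaged 251 ± 28.9, 78.7 ± 7.71 and 95.0 ± 7.56 CPM and Bcl10, a partner of MALT1 in the NF-kB branch, 114 ± 10.7, 34.2 ± 7.88 and 36.6 ± 7.88 CPM. Vav1, an exchange factor for RAC, averaged 160 ± 11.1, 142 ± 9.17 and 67.6 ± 12.6 CPM. Sos1, the RAS exchange factor that GRB2 carries, averaged 62.3 ± 4.42, 35.6 ± 12.8 and 31.0 ± 2.64 CPM and did not pass in any comparison.

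The genes for the CD3 chains lie together on chromosome 9. Cd3g (chr9:44969572-44980431, minus strand) and Cd3d (chr9:44981786-44987339, plus strand) are transcribed away from each other with 1354 bases between them, and Cd3e follows 11.4 kb beyond Cd3d (GENCODE M21, GRCm38). Their upstream sequences are shown because Cd3g changed over time in ProT cells while Cd3d did not pass the test. Both are the 250 bases before the RefSeq start on GRCm38.p6, written 5′ to 3′ on the strand of the gene, at chr9:44980432-44980681 for Cd3g and chr9:44981536-44981785 for Cd3d. Capitals mark E-boxes, CANNTG, the motif bound by E proteins and by pairs of an E protein with TAL1.
Cd3g: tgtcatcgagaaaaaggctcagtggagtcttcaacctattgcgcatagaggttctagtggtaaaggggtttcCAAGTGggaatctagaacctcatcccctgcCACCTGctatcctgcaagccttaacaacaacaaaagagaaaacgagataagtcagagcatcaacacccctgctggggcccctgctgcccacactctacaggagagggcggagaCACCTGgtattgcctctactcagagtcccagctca
Cd3d: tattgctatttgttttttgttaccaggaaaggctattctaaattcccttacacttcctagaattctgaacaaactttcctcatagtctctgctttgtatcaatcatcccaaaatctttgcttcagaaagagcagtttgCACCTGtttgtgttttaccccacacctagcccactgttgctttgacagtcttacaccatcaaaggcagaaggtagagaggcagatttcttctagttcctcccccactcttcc
The Cd3g window held 3 E-boxes and 1 GATA motif (AGATAA), and the Cd3d window held 1 E-box and no AGATAA. RefSeq windows were matched for 31 of the 40 genes, 46 windows in all. Searched on both strands, CANNTG occurred in 71.7% of these windows and in 66.2% of all 32851 windows of the same length. CAGATG, an E-box of TAL1 and E protein pairs that is a special case of CANNTG, occurred in 10.9% and 14.4%, CAGCTG, another special case, in 4.35% and 13%, AGATAA in 8.7% and 9.99%, and the RUNX core TGTGGT in 10.9% and 14%. Such matches describe the letters of the windows and say nothing of binding.

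The mice labelled TAL1 were compared with the empty-vector mice to ask what the TAL1 label goes with in thymus. Of the 40 genes, 3 fell (Cd2, Fyn and Cd5) and 1 rose (Nfatc3), with edgeR's quasi-likelihood test and Benjamini-Hochberg adjustment over all genes. Of all 12357 genes tested, 5.04% passed that test. The median log2 fold change was -0.12 over the 40 genes and -0.00 over all genes tested, and 31 of the 40 values were negative. Of the 4 surface coreceptors 2 passed, and all 4 values were negative, between -0.81 and -0.21. With all 12 mice in a single fit none of the 4 calls was kept, with adjusted p between 0.619 and 0.856.

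Cd2 (chr3:101275899-101287939), an adhesion receptor that strengthens receptor signalling, measured 274, 318.5 and 343 CPM in the empty-vector mice and 182, 140 and 210 CPM in the mice labelled TAL1. The groups did not overlap, and the highest mouse labelled TAL1 lay below the lowest empty-vector mouse. Lack of overlap was common in the set: 13 genes lay wholly lower with the TAL1 label, 3 wholly higher, and 24 overlapped. Cd2 fell by 0.81 on the log2 scale (SE 0.14, n = 3 mice a group, adjusted p = 0.00542), and it kept its call without any one of the 6 mice, with adjusted p between 0.00237 and 0.0342. Cd5 (chr19:10717116-10739002), a surface brake whose level follows receptor signal strength in thymocytes, measured 103, 162 and 164 CPM against 96.1, 77.5 and 94.6 CPM. Every mouse labelled TAL1 lay below every empty-vector mouse, although empty-vector mouse M311 came close. Cd5 fell by 0.67 (SE 0.17, n = 3, adjusted p = 0.0359), a call that was lost without empty-vector mouse M312 or M315 or any mouse labelled TAL1, with adjusted p between 0.0666 and 0.174. Cd6, a receptor related to Cd5 and 50.3 kb from it, measured 90.2, 95.7 and 94.9 CPM against 73.3, 66.4 and 70.5 CPM, a log2 difference of -0.42 (SE 0.11, adjusted p = 0.0556).

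Fyn (chr10:39368855-39565381), the second SRC-family kinase of T cells, measured 234, 327 and 305 CPM in the empty-vector mice and 187, 141 and 196 CPM in the mice labelled TAL1. The groups did not overlap. Fyn fell by 0.72 on the log2 scale (SE 0.15, n = 3, adjusted p = 0.0114), a call that did not hold without M312 (adjusted p = 0.0693) or without M315 (0.0638), both empty vector. Its relative Lck did not pass the test and measured 1416, 1512 and 1384 CPM against 1799, 1575 and 1918 CPM, a log2 difference of 0.30 (SE 0.08, adjusted p = 0.0675). The mice labelled TAL1 were all above the empty-vector mice for Lck and all below them for Fyn. The other 4 kinases and switches had log2 differences from -0.45 (Txk, a TEC-family kinase) to -0.17 (Zap70), and none passed.

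Nfatc3 (chr8:106058840-106130537), a calcium-driven transcription factor, was the single gene that rose. It measured 698, 816 and 873 CPM in the empty-vector mice and 1126, 1023 and 1070 CPM in the mice labelled TAL1, again without overlap. The rise was 0.43 on the log2 scale (SE 0.09, n = 3, adjusted p = 0.0156), and the call did not hold without M312 (adjusted p = 0.0563, empty vector), M317 (0.0894, TAL1) or M319 (0.0520, TAL1). Its relatives did not pass: Nfatc2 had a log2 difference of -0.79 (SE 0.21, adjusted p = 0.0522) and Nfatc1 of -0.15 (SE 0.16, adjusted p = 0.717). Prkcq, the protein kinase C of the T cell synapse, had the most negative value of the 40, -1.39 (SE 0.47, adjusted p = 0.127). It measured 92.0, 514 and 124.1 CPM in the empty-vector mice and 80.6, 86.5 and 108 CPM in the mice labelled TAL1, so that M312 alone stood high.

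None of the 4 CD3 and zeta genes passed, with log2 differences between -0.21 and -0.05, and none of the 10 adaptors passed, between -0.27 (Plcg1) and 0.14 (Themis). None of the 8 negative regulators passed, between -0.56 for the ubiquitin ligase Cblb and 0.25 for its relative Cbl. Sh2d1a shares 26.6% of its exon bases with Tenm1 and Cd247 56.4% with Pou2f1, each on the other strand, and the strand setting of the counting is not given in the sources used here, so their values are uncertain.

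Of 112 other genes of the pathway in 8 lists, 107 were tested, 2 rose and 10 fell, with a median log2 fold change of -0.15, while of all genes tested 2.16% rose and 2.88% fell. Those that passed with the smallest adjusted p among changes of at least 1 on the log2 scale were Ubash3b, a phosphatase brake, Icos, a costimulator, Btla, an inhibitory receptor, Nr4a3, a gene induced by receptor signals, and Tnfrsf4, a costimulator of the TNF receptor family. Ubash3b fell by 1.74 (SE 0.29, adjusted p = 0.00455) and Tnfrsf4 fell by 1.58 (SE 0.39, adjusted p = 0.0324). Btla fell by 1.38, Icos fell by 1.26 and Nr4a3 fell by 1.08, with adjusted p of 0.0136, 0.0131 and 0.0244. Among smaller changes, 2 constant chains of the receptor passed in opposite directions. Trac had a log2 change of -0.72 (SE 0.08, adjusted p = 0.000664) and Trbc1 of 0.40 (SE 0.08, adjusted p = 0.00896). The costimulator and SLAM list had 3 of 10 genes lower and none higher, with a median of -0.59, beside the 2.88% lower among all genes.

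Markers of mature T cells were mostly lower in the mice labelled TAL1. Their 8 genes summed to 928 to 1008 CPM in the empty-vector mice and 254 to 400 CPM in the mice labelled TAL1, with 6 of 8 lower and none at 0 in either group. The 8 markers of double-positive thymocytes summed to 6679 to 7788 CPM and 8999 to 10121 CPM, with 5 of 8 higher. Myeloid markers were at 380 CPM in mouse M318 labelled TAL1 and at 13.4 to 34.5 CPM in the other 5 mice. Depth was 3893990 to 5915285 counts in the empty-vector mice, with 33.0% of reads in no annotated feature, and the mice labelled TAL1 had 7155918 to 11302098 counts and 29.8% to 30.3%. The part of other cells or of these library differences in the results was not tested. In such bulk tissue, fewer cells of a type and less RNA per cell cannot be told apart.

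**Figure D2:**
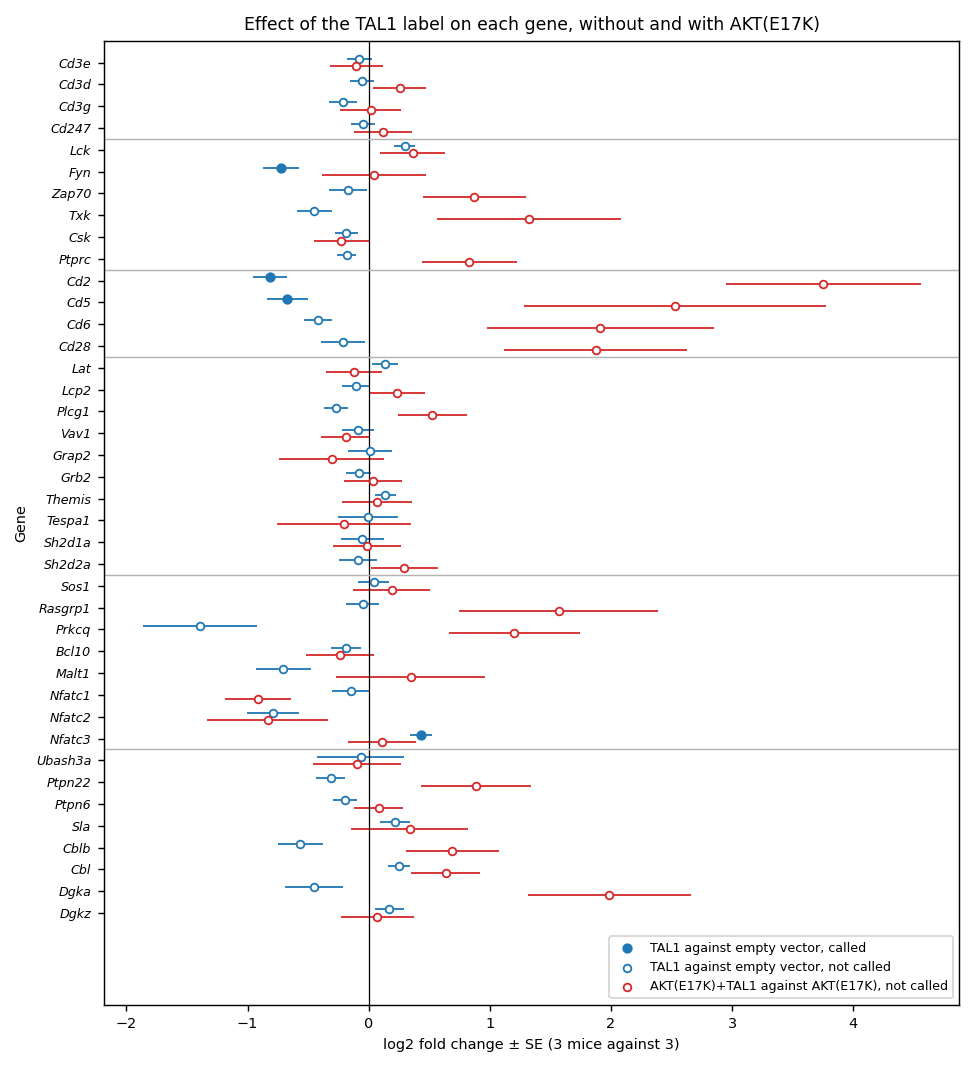
Points show the log2 fold change of each of the 40 genes and bars its SE, blue for TAL1 against empty vector and red for AKT(E17K) with TAL1 against AKT(E17K), with 3 mice in each group; filled points passed the adjusted threshold of 0.05. The 4 filled points are Cd2, Fyn, Cd5 and Nfatc3, and the red bars are wide for the 4 coreceptors.

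The mice labelled AKT(E17K) with TAL1 were compared with those labelled AKT(E17K) alone to ask the same within the AKT(E17K) background. None of the 40 genes passed the test, and 0% of the 9782 genes tested passed it, at a smallest adjusted p of 0.218 with edgeR. At an unadjusted p under 0.05 there were 709 genes, 4 of them among the 40, and DESeq2 called none of the 40. The median log2 difference was 0.21 over the 40 genes and -0.01 over all genes tested. The 4 coreceptors had differences of 1.87 to 3.75, none of which passed.

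Cd2 measured 0.320, 2.63 and 13.9 CPM in mice m121, m122 and m124 labelled AKT(E17K), from 1, 5 and 54 counts, and 101, 94.6 and 48.9 CPM in mice m116, m117 and m119 labelled AKT(E17K) with TAL1. The groups did not overlap, but the 3 AKT(E17K) mice spread widely. The log2 difference was 3.75 (SE 0.80, n = 3, adjusted p = 0.373), and it passed with no filter on low counts (adjusted p = 0.0206) and with all 12 mice in a single fit (0.0193). Cd5 had no count in mice m121 and m122 and 4.11 CPM in mouse m124, against 14.8, 11.7 and 0.932 CPM, so the groups overlapped. Cd6 measured 1.28, 1.58 and 17 CPM against 27.8, 44.8 and 6.06 CPM and also overlapped. Cd28, the main costimulatory receptor, measured 3.52, 2.63 and 29.3 CPM against 47.2, 59.0 and 29.4 CPM, with mouse m124 just below the lowest mouse of the other group.

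Mouse m124 stood apart from mice m121 and m122 in other genes of the set too. Rasgrp1, the RAS activator driven by diacylglycerol, measured 6.73, 1.58 and 45.5 CPM in the 3 mice labelled AKT(E17K) alone and 75.0, 53.7 and 37.3 CPM in the mice that also carry the TAL1 label. Ptprc (CD45, the phosphatase that readies LCK) measured 519, 716 and 1353 CPM against 1351, 2133 and 1124 CPM. In both genes mouse m124 lay within the range of the other group while mice m121 and m122 lay below it. Without mouse m124, 8 genes passed the test in all and 2 of the 40, Cd2 at a log2 difference of 5.97 (adjusted p = 0.0351) and Cd28 at 3.83 (adjusted p = 0.0422). Each mouse was left out in turn, and mouse m124 is singled out because it stood high in these same genes. The calls without it are therefore not independent of that choice.

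The other genes with the smallest p were Nfatc1, Dgka, Prkcq and Cbl. Nfatc1 measured 51.9, 79.5 and 60.9 CPM without the TAL1 label and 26.1, 39.9 and 35.9 CPM with the TAL1 label, without overlap, a log2 difference of -0.91 (SE 0.27, adjusted p = 0.540). Dgka, a diacylglycerol kinase that dampens the RAS branch, measured 8.97, 72.2 and 45.0 CPM against 149, 274 and 70.4 CPM, with mouse m122 above mouse m119. Prkcq measured 9.61, 16.3 and 45.8 CPM against 41.2, 83.7 and 42.4 CPM and overlapped. Cbl measured 145, 212 and 288 CPM against 326, 395 and 280 CPM and overlapped as well.

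Among the receptor chains the differences were small. Cd3e measured 316.8, 263 and 267 CPM without the TAL1 label and 288, 277 and 224 CPM with the TAL1 label, a log2 difference of -0.10 (SE 0.22). The 4 CD3 and zeta genes had differences between -0.10 and 0.26 and the 10 adaptors between -0.30 and 0.53. Of the other pathway genes, 85 were tested and none passed, with a median of 0.16 and 7 at an unadjusted p under 0.05.

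Other markers differed among these 6 mice. Myeloid markers summed to 940 CPM and endothelial and stromal markers to 473 CPM in mouse m121, against 81.1 CPM and 34.2 CPM in mouse m122 and 201 CPM and 123.95 CPM in mouse m124. Double-negative thymocyte markers summed to 756 to 1020 CPM in the AKT(E17K) group and 1221 to 3448 CPM with the TAL1 label, and 0 of the 5 tested passed. Mouse m124 was the highest of its group in double-positive thymocyte markers, at 4072 CPM against 2851 and 2985 CPM, and in dendritic cell markers, at 178 CPM against 31.7 and 24.8 CPM. With the TAL1 label these lists summed to 3111 to 4505 CPM and 71.3 to 135 CPM. The dendritic list, which includes Flt3 and Ccr9, summed to 755 to 1583 CPM in the empty-vector mice. Which cells its counts came from was not tested, so the sum is not read as an amount of dendritic cells. Mature T cell markers were low in both groups, at 19.0 to 40.4 CPM and 45.7 to 69.5 CPM. Their part in the result was not tested.

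**Figure D3:**
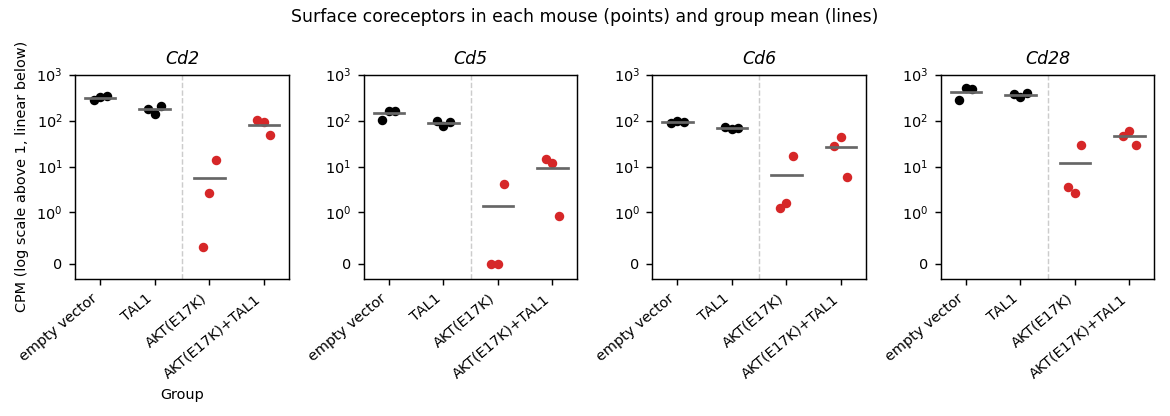
Points show the CPM of each of the 12 mice and lines the group means for the 4 coreceptor genes, on an axis that is logarithmic above 1 CPM and linear below; the dashed line separates the 2 tables. In each panel mouse m124 is the highest of the AKT(E17K) group.

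Whether the difference with the TAL1 label was itself different in the AKT(E17K) background was tested as an interaction over the 12 mice, in which 0.163% of 11018 genes passed. Cd2 was the single gene of the 40 that passed. Its change with the TAL1 label was higher by 4.54 on the log2 scale with AKT(E17K) than without it (SE 0.77, adjusted p = 0.0348), being -0.81 without and 3.75 with AKT(E17K). The call was lost without any one of the 3 empty-vector mice, the 3 mice labelled TAL1, mouse m122 labelled AKT(E17K), or mice m116 and m117 labelled AKT(E17K) with TAL1, with adjusted p of 0.0581 to 0.145, while the difference itself stayed between 3.96 and 6.87 without any one mouse. Cd5, Cd6 and Cd28 had differences of 3.15 (SE 0.99, adjusted p = 0.276), 2.29 (SE 0.92, adjusted p = 0.388) and 2.05 (SE 0.78, adjusted p = 0.365), all at an unadjusted p under 0.05. Without mouse m124, 175 genes passed in all and 7 of the 40: Cd2, Cd6, Cd28, Ptprc, Rasgrp1, Ptpn22 and Cd5, which then had no count left in the AKT(E17K) group. Mouse m124 was the highest of its group in each of these 7 genes. Leaving it out lowers that group in the genes tested, so these calls are not read as support for an interaction. The pairs with and without AKT(E17K) come from different tables, so a difference between the experiments and one between the backgrounds cannot be told apart. Over the 40 genes the median difference was 0.28, over all genes tested -0.01, and at an unadjusted p under 0.05 there were 12 of the 40 genes and 1200 of all 11018. None of the 105 other pathway genes tested passed, with a median of 0.32. Of the 8 mature T cell markers 1 passed in this test, higher, with a median of 2.27, and their part in the result was not tested.

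In ProT cells the question was which genes change in the hours after 4-hydroxytamoxifen, and each time was compared with the same 3 libraries at 0 h. At 6 h none of the 38 genes passed, and 0% of the 13610 genes tested passed with edgeR, at a smallest adjusted p of 0.196. DESeq2 also called none of the 38. There were 734 genes at an unadjusted p under 0.05, 2 of them among the 38. The 6 genes with the smallest p were Ubash3a, Ptpn6, Nfatc3, Vav1, Grap2 and Cd247, with log2 differences between -0.51 and 0.72, and the median was 0.03 over the 38 genes.

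At 12 h, 8 of the 38 genes passed, 4 higher and 4 lower, beside 12% of all genes tested. At 18 h, 3 passed, all higher, beside 8.82%. At 24 h, 11 passed, 6 higher and 5 lower, beside 18.7%. In the test over all times 9 passed, beside 18%. The shares at 12, 18 and 24 h were 21.1%, 7.89% and 28.9% of the 38 genes, and their median log2 changes were -0.04, 0.00 and -0.07, beside -0.01 over all genes at each time. Over the 3 times 13 genes passed at least once and none in both directions. Genes of 1 role went both ways, as the CD3 chain gene Cd3g and the zeta chain gene Cd247 show.

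Cd3g measured 61.1, 58.7 and 57.0 CPM at 0 h and 57.3, 51.9 and 54.3 CPM at 6 h. It then measured 90.6, 86.7 and 88.9 CPM at 12 h, 91.4, 78.2 and 70.3 CPM at 18 h and 65.8, 74.3 and 65.2 CPM at 24 h. All 12 h, 18 h and 24 h libraries lay above all 0 h and 6 h libraries. Cd3g rose by 0.59 at 12 h (SE 0.11, n = 3, adjusted p = 0.000855) and by 0.44 at 18 h (SE 0.11, adjusted p = 0.0149), and its value at 24 h was 0.22 (SE 0.11, adjusted p = 0.175). Cd3d, across the 1.35 kb gap, measured 59.4, 81.9 and 65.8 CPM at 0 h and 51.4, 79.4 and 50.2 CPM at 12 h, with overlap and a log2 difference of -0.20 (SE 0.17, adjusted p = 0.494). The difference between the 2 genes was not tested.

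Cd247 (chr1:165788681-165877277), the zeta chain, measured 123, 111 and 128 CPM at 0 h, 92.8, 93.0 and 93.0 CPM at 12 h and 91.5, 83.3 and 82.1 CPM at 24 h, without overlap with 0 h. It fell by 0.38 at 12 h (SE 0.10, adjusted p = 0.0150) and by 0.49 at 24 h (SE 0.10, adjusted p = 0.00139), with the reservation about Pou2f1 given above. Cd28 measured 41.8, 38.3 and 37.2 CPM at 0 h, 23.4, 21.7 and 30.7 CPM at 12 h and 22.1, 21 and 17.6 CPM at 24 h. It had the largest fall among the genes that passed, 0.63 at 12 h (SE 0.15, adjusted p = 0.00756) being followed by a log2 change of -0.93 at 24 h (SE 0.16, adjusted p = 0.000217). At 18 h it measured 32.2, 39.4 and 26.3 CPM, which overlapped with 0 h, and did not pass.

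Lat, the scaffold, measured 81.6, 80.8 and 83.9 CPM at 0 h, 56.3, 65.2 and 67.8 CPM at 12 h and 57.7, 53.9 and 61.1 CPM at 24 h, without overlap. It fell by 0.38 at 12 h (SE 0.11, adjusted p = 0.0185) and by 0.52 at 24 h (SE 0.11, adjusted p = 0.00145). Grb2, the adaptor that brings SOS to LAT, went the other way, with 118, 118.8 and 129 CPM at 0 h. Its later values were 170, 165 and 173 CPM at 12 h, 182, 193 and 163 CPM at 18 h and 183, 195 and 182 CPM at 24 h. All libraries from 12 h on lay above those at 0 h. Grb2 rose by 0.47, 0.55 and 0.61 at the 3 times (SE 0.11 each, adjusted p = 0.00645, 0.00270 and 0.000462), the one gene of the set besides Sla that passed at all 3.

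Sla (SLAP, an adaptor that promotes loss of receptor chains) measured 23.0, 22.4 and 25.9 CPM at 0 h, 37.2, 34.9 and 43.4 CPM at 12 h, 36.7, 36.7 and 28.9 CPM at 18 h and 34.5, 32.6 and 36.7 CPM at 24 h. It lay above 0 h in every library of the 3 later times. The rises were 0.68, 0.50 and 0.53 (SE 0.16 each, adjusted p = 0.00450, 0.0465 and 0.0187). Ptpn22, a phosphatase that acts on LCK and ZAP70, measured 29.3, 29.5 and 31.5 CPM at 0 h and 24.2, 19.0 and 20.4 CPM at 24 h. It fell by 0.51 there (SE 0.15, adjusted p = 0.0170), without overlap. Dgkz, a diacylglycerol kinase, measured 47.3, 51.0 and 54.9 CPM at 0 h and 71.1, 71.1 and 66.0 CPM at 24 h and rose by 0.43 (SE 0.13, adjusted p = 0.0200).

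The remaining calls were those of Ptprc, Rasgrp1, Csk, Nfatc3 and Cd5. Ptprc measured 466, 456 and 457 CPM at 0 h, 394, 340 and 334 CPM at 12 h and 354, 362 and 374 CPM at 24 h. It fell by 0.37 (SE 0.11, adjusted p = 0.0218) and by 0.34 (SE 0.11, adjusted p = 0.0239), without overlap at either time. Rasgrp1 measured 28.4, 24.9 and 23.2 CPM at 0 h and 36.6, 37.2 and 32.2 CPM at 12 h and rose by 0.49 (SE 0.15, adjusted p = 0.0311), again without overlap. At 24 h, Csk, the kinase that restrains LCK, measured 89.9, 80.1 and 85.3 CPM against 61.1, 70.9 and 66.6 CPM at 0 h and rose by 0.36 (SE 0.12, adjusted p = 0.0421). Nfatc3 measured 176, 175 and 158 CPM against 102, 142 and 138 CPM and rose by 0.41 (SE 0.13, adjusted p = 0.0283). Cd5 measured 7.21, 9.48 and 8.91 CPM against 5.86, 4.25 and 5.45 CPM and rose by 0.72 (SE 0.26, adjusted p = 0.0492). None of these 3 genes overlapped between 24 h and 0 h, and Cd5 rested on 14 to 60 counts a library. Lack of overlap was common in the set, the untested Cd2 and Zap70 included. At 24 h, 9 genes lay wholly above 0 h, 9 wholly below, and 22 overlapped. At 12 h the counts were 6, 9 and 25. The share among all genes was not tested, so lack of overlap is not read as support for these calls. The Cd5 call was lost with a replicate block (adjusted p = 0.0555), with DESeq2 (0.0756) and with no filter on low counts (0.0811).

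**Figure D4:**
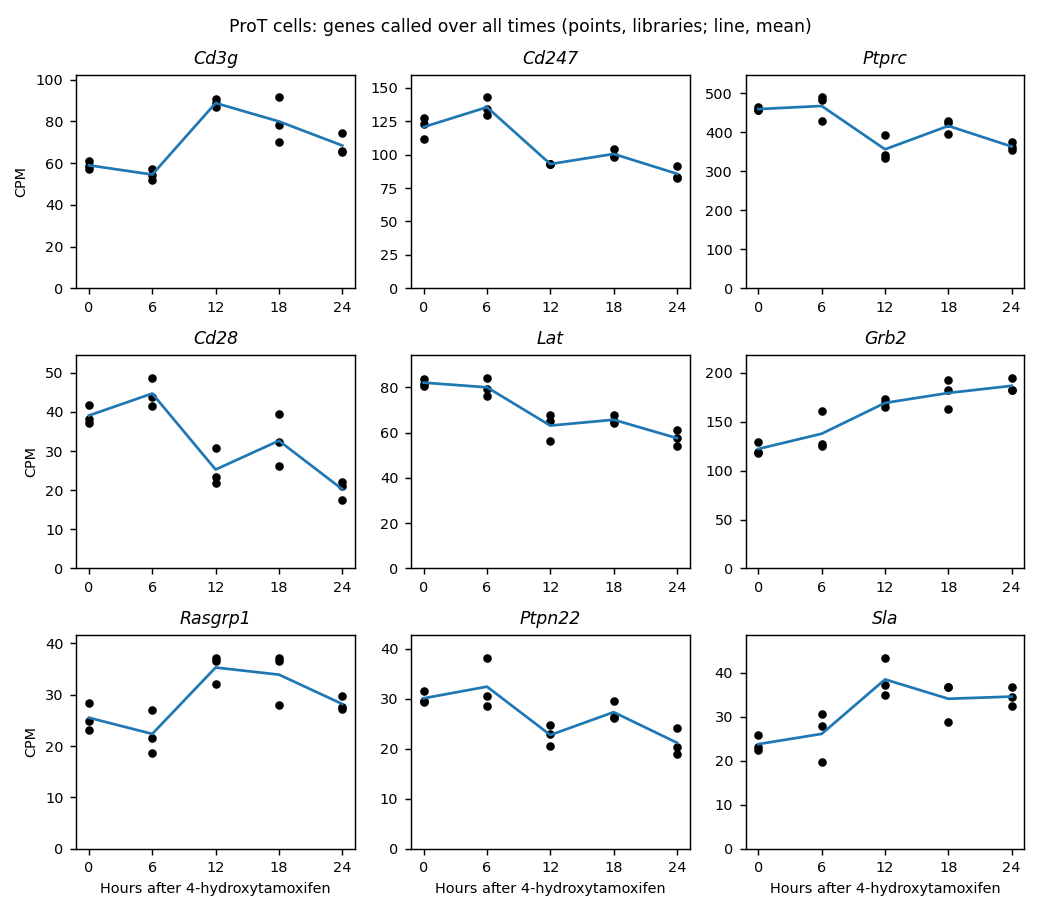
Points show the CPM of the 3 ProT libraries at each time in hours after 4-hydroxytamoxifen and lines their means, for the 9 genes that passed the test over all times. Cd3g, Grb2, Rasgrp1 and Sla lie higher at 12 h than at 0 h, and Cd247, Ptprc, Cd28, Lat and Ptpn22 lie lower at 24 h.

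The split between higher and lower genes depended on the scaling. With library size alone, the median of all genes tested lay at 0.18, 0.13 and 0.17 on the log2 scale at 12, 18 and 24 h. Of the 38 genes, 6 were then called higher and 0 lower at 12 h, 4 higher and 0 lower at 18 h, and 8 higher and 1 lower at 24 h, while Cd247, Ptprc, Lat and Ptpn22 no longer passed at any of them, nor Cd28 at 12 h. Relative to that median, Lat still stood at -0.50 and Cd28 at -0.92 at 24 h. Of the 22 calls of a member at a time, 8 held without any one library: Cd3g at 12 h, Sla at 12 h, Grb2 at 12, 18 and 24 h, and Cd247, Cd28 and Lat at 24 h. The other 14 were lost without at least 1 library of the times compared. Csk and Cd5 at 24 h were lost without any one of the 6, with adjusted p of 0.0587 to 0.141 and 0.0509 to 0.179. At 12 h Cd28 was lost without 12 h replicate 2 (adjusted p = 0.0501), Cd247 without 0 h replicate 1 or 3 (up to 0.0721), Lat without 12 h replicate 1 or any 0 h replicate (up to 0.0802), Rasgrp1 without 0 h replicate 2 or 3 or 12 h replicate 1 or 2 (up to 0.128), and Ptprc without any of the 6 but 12 h replicate 1 (up to 0.0821). At 18 h Cd3g was lost without 0 h replicate 2 or 3 or 18 h replicate 1 (up to 0.136) and Sla without any of the 6 but 18 h replicate 3 (up to 0.180). At 24 h Sla was lost without 0 h replicate 1 or 2 or 24 h replicate 3 (up to 0.0820), Nfatc3 without 0 h replicate 1 or 24 h replicate 1 or 2 (up to 0.176), and Ptpn22 without 0 h replicate 3 or 24 h replicate 2 or 3 (up to 0.0897). Dgkz was lost there without 0 h replicate 1 or 2 or 24 h replicate 1 or 2 (up to 0.0803), and Ptprc without any of the 6 but 24 h replicate 3 (up to 0.0922). The 9 calls over all times held without any one of the 15 libraries, but with library size alone Lat (adjusted p = 0.102), Ptprc (0.214) and Ptpn22 (0.0777) lost theirs. With no filter on low counts Cd247 (0.0729), Lat (0.0794) and Ptprc (0.0673) lost the call at 12 h and Ptprc at 24 h (0.0811), and with only the times compared in the fit Ptprc (0.0576) and Lat (0.0517) lost it at 12 h.

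The other pathway genes also went both ways in ProT cells. Of 95 tested, 8 rose and 10 fell at 12 h, 10 rose and 6 fell at 18 h, 6 rose and 17 fell at 24 h, and 34 passed over all times. Of all genes tested, 6.33% rose and 5.69% fell at 12 h, 4.89% rose and 3.92% fell at 18 h, 9.43% rose and 9.3% fell at 24 h, and 18% passed over all times. Egr1, an immediate early gene of the receptor-induced list, fell by 1.6 at 12 h (SE 0.43, adjusted p = 0.0138), was higher by 3.99 at 18 h (SE 0.26, adjusted p = 5.96e-11) and by 1.83 at 24 h (SE 0.29, adjusted p = 0.000114). At 18 h the early genes Junb, Ier2 and Dusp2 rose by 1.64, 0.93 and 0.60 (SE 0.20, 0.17 and 0.11, adjusted p = 1.54e-05, 0.000810 and 0.000916), and 4 of the 11 tested genes of the receptor-induced list were higher at that time, beside the 4.89% of all genes. Whether receptor signals had a part in the changes of these listed genes was not tested, and the later times have no untreated libraries. Lax1, a brake on the membrane, fell by 1.16, 1.22 and 1.10 at 12, 18 and 24 h, and the adaptor gene Gab2 rose by 0.75, 0.84 and 0.76. At 12 h the costimulator Cd226 fell by 2.23 and the calcium channel gene Orai2 fell by 0.75. At 24 h the EGR1 corepressor Nab2 fell by 1.04.

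Marker levels moved in ProT cells over the same hours. Markers of double-negative thymocytes summed to 934 to 1062 CPM at 0 h, 1453 to 1694 CPM at 12 h and 1584 to 1635 CPM at 24 h, with 5 of the 6 tested higher at 24 h and 1 lower. Mature T cell markers summed to 344 to 357 CPM at 0 h and 334 to 361 CPM at 24 h, with 2 of 7 higher and 2 lower. Markers of gamma-delta T cells summed to 1099 to 1163 CPM at 0 h, 1560 to 1726 CPM at 12 h and 1479 to 1571 CPM at 24 h, with 2 of 4 higher at both later times. Markers of NK and innate lymphoid cells summed to 599 to 745 CPM, 876 to 1208 CPM and 811 to 872 CPM, with 1 of 5 higher and 1 lower at 12 h and 1 higher and 2 lower at 24 h. Their part in the result was not tested.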

How the data were processed

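The authors deposited raw counts per gene of 27 libraries in 3 tables; per the submitters' processing notes they used FastQC, HISAT2, SAMtools and HTSeq with mm10/GRCm38, and versions, annotation release and strand setting are not given in the sources used here. Lines that name no gene (17.3% to 33.0% of reads in no feature in the 2 tables that hold them) were not counted in library sizes or tests. Tests used edgeR 4.0.16 in R 4.3.3 (quasi-likelihood F test, TMM, filterByExpr), and p-values were adjusted by Benjamini-Hochberg over all genes tested at a threshold of 0.05; 38 to 40 of the 40 genes passed the filter. CPM are counts over the filtered library size times the TMM factor, and levels between genes are divided by exon length (GENCODE M21). Of 2 lines named Cd28, the one whose identifier is in the annotation was used. SE is the absolute log2 fold change over the square root of F. Code was tested on simulated data. DESeq2 1.42.0, other scalings, no filter, other samples in the fit and leaving out each library were alternatives.

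The 40 genes, the other pathway genes and the marker lists were chosen with earlier results of these data known. All 40 genes were named; those past the threshold got full statistics, or, where none passed, the 6 with the smallest p got values. Trac and Trbc1 were named outside the rule for other pathway genes. By that rule they were named up to 6 per comparison by smallest adjusted p with an absolute log2 change of at least 1 (0.5 in ProT cells). Some of the genes that this rule names are not reported here.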

Additional observations from a re-analysis of the deposited data

Results flagged for a closer look

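The change of Cd2 with the TAL1 label differed between the mice with and without AKT(E17K) by 4.54 on the log2 scale (SE 0.77, 12 mice, edgeR adjusted p = 0.0348), which is a test of the difference itself. All 3 mice labelled TAL1 were below all 3 empty-vector mice, and all 3 mice labelled AKT(E17K) with TAL1 were above all 3 labelled AKT(E17K). The AKT(E17K) mice rested on 1, 5 and 54 counts of Cd2, and the call was lost without 9 of the 12 mice taken one at a time, with adjusted p of 0.0581 to 0.145.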

How the results depend on the processing

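The counts of passing genes depended on the setting. For TAL1 against empty vector, where 4 passed, DESeq2 gave 8, no filter on low counts 9, and all 12 mice fitted together 0; leaving out 1 mouse gave 1 to 9. For AKT(E17K) with TAL1 against AKT(E17K), where 0 passed, no filter and all 12 mice together each gave 1, and leaving out 1 mouse 0 to 2. For the interaction, where 1 passed, leaving out 1 mouse gave 0 to 7. In ProT cells no filter gave 5 in place of 8 at 12 h, and only the 2 times compared gave 8 in place of 3 at 18 h. Leaving out 1 library gave between 4 and 8 genes at 12 h, between 1 and 3 at 18 h, between 5 and 8 at 24 h and between 9 and 12 over all times. Other alternatives for these counts stayed within 1.5 times of the first value. No direction reversed for any named gene in the comparisons that have a direction. Of 642 alternative values, 541 kept their side of the threshold, 97 lost the call and 4 gained it. These values include the test over all times, which has no direction that could reverse. A replicate block on the ProT numbers gave 0, 8, 3 and 11 genes at 6, 12, 18 and 24 h and 9 over all times; at 24 h Cd5 lost its call (adjusted p = 0.0555) and Dgka gained one (0.0420), and of the named genes no other call changed. A correlation above 0.1 was found in 1 of 30 same-number pairs and 4 of 60 different-number pairs. Of 15 libraries, 3 correlated best with their own number. Pairing by number was thus not seen, but correlations this weak among so few libraries cannot exclude it. The AKT(E17K) comparison had 2073752 to 3661056 counts a library and a biological coefficient of variation of 35.0%, against 22% for TAL1 against empty vector and 11.6% in ProT cells; the part of depth in its low count was not tested.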
